A study of Homo sapiens with 4 samples.

Results

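DDX1, NBAS, MYCNOS and MEIS1 are 4 genes of the short arm of chromosome 2. DDX1, NBAS and MYCNOS are neighbours of MYCN at 2p24, and MEIS1 lies at 2p14, 50.5 Mb from MYCN. They were chosen by name, as genes that are co-amplified with MYCN in the IMR-32 cell line, and they make up 4 of the 60612 genes in the count table. All 4 had enough reads to be tested, among 17537 genes tested in all. RNA was measured and DNA was not, so the levels below say nothing of copy number by themselves.

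MYCN encodes N-Myc, a transcription factor of the MYC family, and its amplification marks aggressive neuroblastoma, a childhood tumour of the sympathetic nervous system. Amplification copies a stretch of DNA around MYCN many times, and the stretch often carries the genes beside it. DDX1 encodes a DEAD-box RNA helicase that works with the tRNA ligase complex, which rejoins spliced tRNA pieces. NBAS encodes a subunit of the NRZ tether, which receives vesicles returning from the Golgi to the endoplasmic reticulum, and also has a part in nonsense-mediated mRNA decay. MYCNOS is transcribed from the strand opposite to MYCN and overlaps its first part. MEIS1 encodes a homeobox transcription factor of the TALE class that pairs with PBX and HOX proteins on DNA.

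The study sequenced RNA of IMR-32, an established MYCN-amplified human neuroblastoma line, in 2 libraries with a control hairpin (shControl) and 2 with a hairpin against NeuroD1 (shNeuroD1). All cells were stably transduced with a doxycycline-inducible short hairpin RNA, and all received doxycycline, the controls too, at 1 µg/mL for 48 h. The genotype label of the controls reads WT although they carry the control hairpin. The titles number the knockdown libraries 1 and 2, as the study also numbers its hairpins against NeuroD1, while the study's supplement names both libraries for a single hairpin. The labels do not settle whether 1 or 2 hairpins are represented. Whether replicates came from separate cultures is not in the labels, so p-values measure only the spread between these libraries.

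The 300 bases around the RefSeq start of each gene, most of them before it, are shown because NeuroD1, paired with an E protein, binds the E-box form CAGATG. Capitals mark CAGATG, or CATCTG where it lies on the other strand. All are from RefSeq on GRCh38.p14, printed 5′ to 3′ on the strand of the gene. They cover chr2:15591618-15591917 (plus strand) for DDX1, chr2:15561285-15561584 (minus strand) for NBAS, chr2:15941636-15941935 (minus strand) for MYCNOS, chr2:66434875-66435174 (plus strand) for MEIS1 and chr2:15940300-15940599 (plus strand) for MYCN.
DDX1: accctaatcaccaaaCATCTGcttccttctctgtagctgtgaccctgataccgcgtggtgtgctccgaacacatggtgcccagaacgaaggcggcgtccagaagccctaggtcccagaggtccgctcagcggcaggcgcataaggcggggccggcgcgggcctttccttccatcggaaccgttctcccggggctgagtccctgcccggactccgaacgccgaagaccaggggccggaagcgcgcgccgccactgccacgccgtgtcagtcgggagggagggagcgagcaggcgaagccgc
NBAS: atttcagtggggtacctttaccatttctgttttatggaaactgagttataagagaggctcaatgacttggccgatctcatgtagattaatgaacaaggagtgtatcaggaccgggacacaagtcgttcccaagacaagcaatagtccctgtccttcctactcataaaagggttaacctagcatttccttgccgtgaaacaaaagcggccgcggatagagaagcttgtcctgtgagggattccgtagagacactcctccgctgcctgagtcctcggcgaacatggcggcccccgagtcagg
MYCNOS: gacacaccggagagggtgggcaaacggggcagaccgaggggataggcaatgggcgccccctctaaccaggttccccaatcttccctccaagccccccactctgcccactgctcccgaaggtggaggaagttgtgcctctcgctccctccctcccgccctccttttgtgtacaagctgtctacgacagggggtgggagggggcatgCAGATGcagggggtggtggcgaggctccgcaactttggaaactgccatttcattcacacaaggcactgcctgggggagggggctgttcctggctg
MEIS1: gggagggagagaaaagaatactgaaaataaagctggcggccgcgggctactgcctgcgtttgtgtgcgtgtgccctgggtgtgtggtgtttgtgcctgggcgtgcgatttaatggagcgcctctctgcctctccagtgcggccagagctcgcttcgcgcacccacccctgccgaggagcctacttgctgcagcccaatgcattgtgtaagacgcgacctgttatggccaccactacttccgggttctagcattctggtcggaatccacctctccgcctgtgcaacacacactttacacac
MYCN: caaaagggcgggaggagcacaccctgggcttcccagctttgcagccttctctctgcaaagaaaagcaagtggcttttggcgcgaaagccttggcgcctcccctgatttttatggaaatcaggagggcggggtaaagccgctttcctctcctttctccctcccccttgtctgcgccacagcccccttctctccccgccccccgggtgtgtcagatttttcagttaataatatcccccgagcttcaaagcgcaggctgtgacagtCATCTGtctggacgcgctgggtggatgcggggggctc
The windows of DDX1, MYCNOS and MYCN each held 1 match, and those of NBAS and MEIS1 held none. Of 35116 RefSeq promoter windows of the same length, 14.7% held a match on either strand. In DDX1 the match begins at base 16 of the window, in MYCNOS at base 206 and in MYCN at base 264, which lies just after the MYCN start. The MYCNOS window lies inside the MYCN gene. RefSeq holds a further MYCNOS start, whose window, chr2:15942384-15942683 (minus strand), had no match. A match is a description of the letters and no evidence of binding.

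The libraries held between 14665210 and 16482463 counts. NEUROD1 itself, the target of the hairpin, fell to 14.6% of control (log2 fold change -2.77, SE 0.050, adjusted p = 8.59e-29, edgeR). Of 9 adrenergic neuroblastoma markers, 9 had at least 10 counts in every library. Their summed level was 2211 to 2227 CPM (counts scaled to library size) in shControl and 1971 to 2001 in shNeuroD1, with TH and DBH low throughout. The 4 Schwann cell markers summed to between 5.03 and 5.15 CPM in shControl and between 8.40 and 9.57 in shNeuroD1. The 4 fibroblast markers summed to between 35.8 and 38.3 CPM in shControl and between 20.7 and 21.5 in shNeuroD1. The 3 endothelial and 3 leukocyte markers stayed under 1.70 CPM summed, with CD3E at 0. The part of these shifts in the results below was not tested. In bulk RNA, fewer cells of a type and less RNA per cell cannot be told apart.

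The 4 genes were all abundant, and DDX1 was among the most abundant RNAs in the cells. Level is given here as CPM per kb of exon, averaged over the 4 libraries, and ranked over the 17303 tested genes with a known length. DDX1 stood at 3064 CPM per kb, rank 6. NBAS stood at 280.6 CPM per kb, rank 83, MYCNOS at 64.4, rank 497, and MEIS1 at 48.6, rank 696. MYCN stood between DDX1 and NBAS, at 760.8 CPM per kb and rank 28. The median of all genes with a length was 4.36 CPM per kb. By reads alone, with no correction for length, DDX1 was second only to the mitochondrial gene MT-CO1. In CPM per kb the order DDX1, MYCN, NBAS, MYCNOS, MEIS1 held in each of the 4 libraries. The values of MYCNOS, from 57.6 to 74.6 CPM per kb, did not overlap those of MEIS1, from 47.3 to 50.5. By the deposited FPKM of transcript starts (fragments corrected for length and depth) the last pair changed places. MYCNOS had 3.26 to 24.4 FPKM and MEIS1 93.5 to 106.4. Of the 24.4 FPKM, 62.6% came from a start listed only in shNeuroD1 replicate 2.

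Among 1182 tested genes of chromosome 2 with a length, DDX1 came 1st, MYCN 3rd, NBAS 7th, MYCNOS 49th and MEIS1 60th. TMSB10, an actin-binding thymosin, followed DDX1 at 1904.7 CPM per kb and did not overlap it in any library. NBAS stood between H3P6, a histone pseudogene at 306.6, and EEF1B2, a translation elongation factor subunit at 257.3, and its libraries overlapped those of both. MYCNOS stood between RAB10, a membrane traffic GTPase at 64.9, and PDIA6, a protein disulfide isomerase at 59.9, overlapping both. MEIS1 stood between NOP58, a nucleolar protein of box C/D particles at 48.7, and PPM1G, a protein phosphatase at 47.1, and overlapped both.

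After NeuroD1 knockdown 3 of the 4 genes fell, each by a small amount. DDX1 and MYCNOS dropped to about 80% of control and NBAS to 93.0%, while the decrease of MEIS1 did not pass the test. The 3 are read against a background of 28.2% of all tested genes that fell at an adjusted p under 0.05. None of the 4 reached a log2 fold change of 1 in size, which 5.14% of tested genes did on the lower side with an adjusted p under 0.05. In all 4 genes both shNeuroD1 libraries lay below both shControl libraries, as in 37.7% of tested genes. MYCN mRNA showed no such order. Values are CPM scaled by TMM, a factor that offsets differences in RNA composition, and adjusted p-values are Benjamini-Hochberg values of the edgeR quasi-likelihood test over all 17537 genes.

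DDX1 (ENSG00000079785) spans chr2:15591178-15631111 on the plus strand, with 3833 exon bases. The control libraries held 196521 and 204587 reads of it, and the knockdown libraries 158486 and 157510. On the CPM scale these were 13333 and 12884 against 10418 and 10344. Both knockdown libraries were low, and the groups lay far apart for their spread, 13108 ± 318 against 10381 ± 52.4 CPM (SD, n = 2 each). DDX1 fell to 79.2% of control, a log2 fold change of -0.34 (SE 0.035, 95% interval -0.41 to -0.27, adjusted p = 8.17e-10, edgeR). This gene alone took 1.28% and 1.24% of all counts in shControl and 1.08% and 1.07% in shNeuroD1. The Wilson 95% intervals of these shares ran from 1.24% to 1.28% over both shControl libraries and from 1.07% to 1.09% over both shNeuroD1 libraries, and cover counting error only. The 4 genes DDX1, NBAS, MYCNOS and MYCN together took 1.73% and 1.70% of counts in shControl and 1.55% in each shNeuroD1 library.

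NBAS (ENSG00000151779) spans chr2:15166909-15561330 on the minus strand, with 8948 exon bases, and its start lies 29848 bases from the DDX1 gene. Its reads numbered 37504 and 42233 in the controls and 36553 and 37105 after knockdown. On the CPM scale these were 2544 and 2660 against 2403 and 2437. The knockdown libraries were both lower, by a margin close to the gap between the shControl libraries. The means were 2602 ± 81.4 and 2420 ± 24 CPM (SD, n = 2 each), a log2 fold change of -0.10 (SE 0.037, 95% interval -0.18 to -0.03, adjusted p = 0.0172, edgeR). The call was lost without shNeuroD1 replicate 1 (adjusted p = 0.186, edgeR) and without shNeuroD1 replicate 2 (adjusted p = 0.106, edgeR). With libraries scaled by their totals alone the log2 fold change was 0.01, a setting that moved the median of all genes from 0.01 to 0.12.

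MYCNOS (ENSG00000233718) spans chr2:15921037-15942249 on the minus strand, with 2413 exon bases, of which 98 (4.06%) lie inside MYCN exons. The controls held 2411 and 2857 MYCNOS reads, and the knockdown libraries 2115 and 2116. On the CPM scale these were 163.6 and 179.9 against 139.03 and 138.96. Both knockdown libraries were low and nearly equal, and the shControl libraries differed more from each other. The means were 171.7 ± 11.6 and 139.0 ± 0.048 CPM (SD, n = 2 each), a log2 fold change of -0.31 (SE 0.049, 95% interval -0.41 to -0.21, adjusted p = 3.42e-06, edgeR). The sources do not state whether counting used strand. Reads from the stretch shared with MYCN may therefore have been left out or given to either gene. The genes also overlap outside shared exons. Without strand, reads of unspliced MYCN RNA from MYCNOS exons there could count as MYCNOS. Their part in the level, rank and decrease of MYCNOS was not tested.

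MEIS1 (ENSG00000143995) spans chr2:66433452-66573869 on the plus strand, with 10934 exon bases. MEIS1 reads numbered 7939 and 8775 in the controls against 7882 and 7874 after knockdown. On the CPM scale these were 538.6 and 552.6 against 518.1 and 517.1. The groups did not overlap, but the gap was small, 545.6 ± 9.88 against 517.6 ± 0.72 CPM (SD, n = 2 each). The log2 fold change was -0.08 (SE 0.040, 95% interval -0.16 to 0.0046), with an adjusted p of 0.104 in edgeR. Without shControl replicate 1 it was -0.11 and passed (adjusted p = 0.0349, edgeR). Scaled by library totals alone its sign turned, to 0.04.

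MYCN (chr2:15940564-15947007, plus strand) is the gene the neighbours are named for, and it serves as the reference within the amplified stretch. Its reads numbered 29840 and 30880 in the controls and 29956 and 30146 after knockdown, or 2025 and 1945 against 1969 and 1980 CPM. The knockdown libraries lay between the controls, with a log2 fold change of -0.01 (95% interval -0.08 to 0.07, adjusted p = 0.886, edgeR). DDX1 had 6.59 and 6.63 reads per MYCN read in shControl and 5.29 and 5.23 in shNeuroD1, a ratio that needs no scaling between libraries. The ratio fell by 0.33 on the log2 scale for DDX1, to 79.6% of control. The same log2 differences were -0.10 for NBAS, -0.30 for MYCNOS and -0.07 for MEIS1. For each of the 4 genes both knockdown ratios lay below both control ratios, and the exact two-sided permutation p was 0.333, the smallest that 2 against 2 libraries allow.

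**Figure D1:**
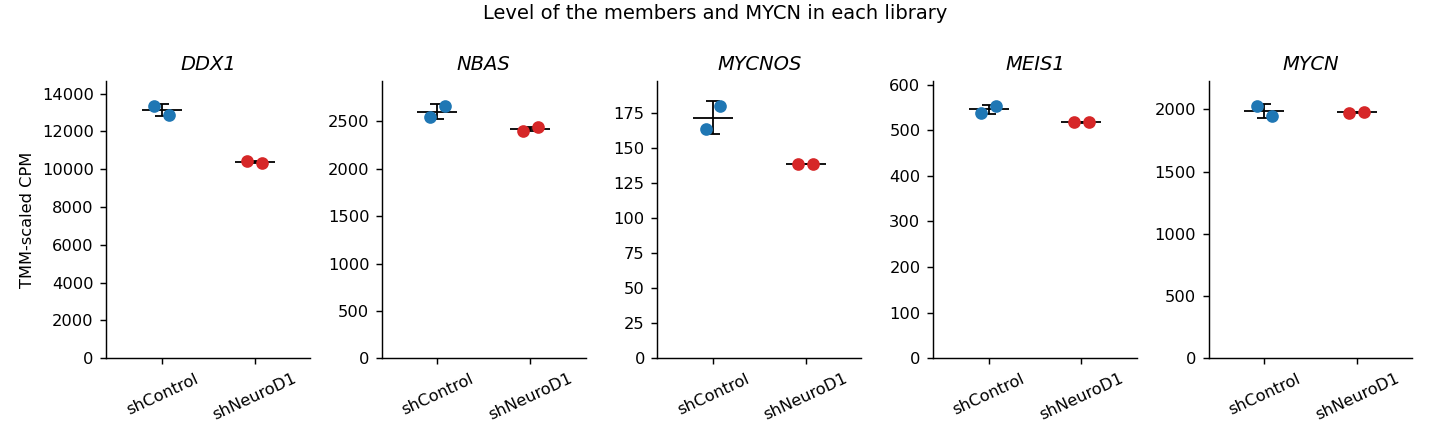
Points are the TMM-scaled CPM of each library for DDX1, NBAS, MYCNOS, MEIS1 and MYCN (vertical axes start at 0 and differ between genes), with the group mean as a line and the SD as error bars (n = 2 each). DDX1 sits near 13108 CPM in shControl and near 10381 in shNeuroD1, and the MYCN libraries overlap.

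**Figure D2:**
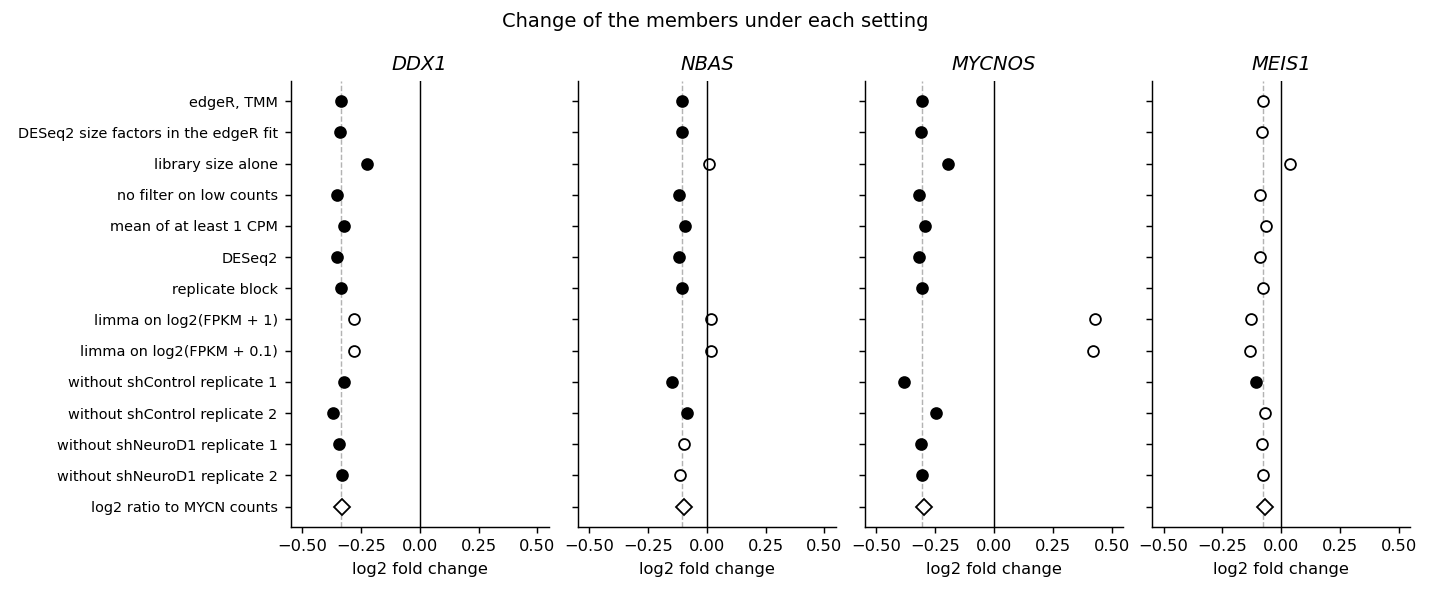
Each row is 1 way of processing, and each point the log2 fold change of shNeuroD1 against shControl for the gene named above the panel; filled circles have an adjusted p under 0.05, open circles do not, and diamonds have no adjusted p. DDX1 stays below 0 in every row, while NBAS turns above 0 when libraries are scaled by totals alone and in both FPKM fits, MEIS1 when scaled by totals alone, and MYCNOS in both FPKM fits.

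The transcript tables, deposited per library, list where assembled transcripts start and end and give each start an FPKM. DDX1 had a single start of at least 1 FPKM, with 3891 and 3775 FPKM in shControl and 3121 and 3189 in shNeuroD1. Its groups did not overlap, and the mean stood at 82.3% of control, close to the value by counts. The limma fit of summed FPKM over 10084 genes gave DDX1 a log2 fold change of -0.28 that did not pass (adjusted p = 0.216). NBAS also had 1 such start, at the RefSeq start itself, with 204.4 and 206.9 FPKM in shControl and 230.1 and 187.9 in shNeuroD1. The NBAS groups overlapped, and the FPKM fit gave a log2 fold change of 0.02 (adjusted p = 0.954, limma).

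MEIS1 had several starts, and the one most used in the shControl libraries was lower in the knockdown libraries. That start (chr2:66435125-66435868) begins at the base where RefSeq places the start of MEIS1. It had 51.4 and 53.8 FPKM in shControl and 40.6 and 35.8 in shNeuroD1, 52.6 ± 1.70 against 38.2 ± 3.36 (SD, n = 2 each). It made up 52.0% and 50.6% of the summed MEIS1 starts in shControl and 43.2% and 38.3% in shNeuroD1. The groups did not overlap, as for 26.7% of 13213 starts on the lower side, and no test was made on this start. A start 4.2 kb downstream held 40.2 and 26.6 FPKM in shControl and 33.6 and 44.6 in shNeuroD1, with overlapping groups. In shNeuroD1 this start was used about as much as the main one, with a mean of 39.1 against 38.2 FPKM, and in shNeuroD1 replicate 2 it held the larger share, 47.7%. A start 7.65 kb downstream had 0.541 and 6.39 FPKM in shControl and 14.1 and 10.1 in shNeuroD1, without overlap on the higher side, as for 25.7% of starts. A start 26.7 kb downstream reached 19.2 FPKM in shControl replicate 2 and stayed under 1 in the other libraries. The summed starts, 98.9 and 106.4 FPKM against 93.9 and 93.5, differed less than the main start did.

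**Figure D3:**
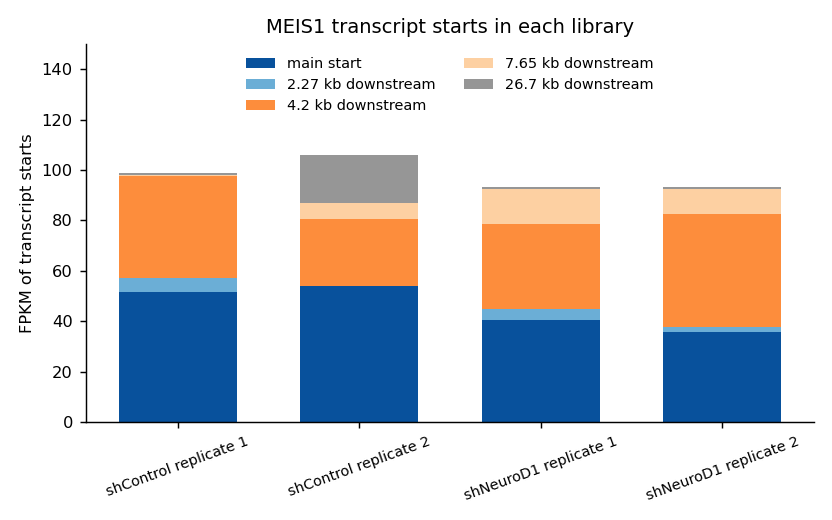
Stacked bars give the FPKM of the MEIS1 transcript starts that reached 1 FPKM in any library, by distance in kb from the main start. The main start, at the bottom, falls from 52.6 FPKM on average in shControl to 38.2 in shNeuroD1, and the start 26.7 kb downstream is seen almost only in shControl replicate 2.

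Exon inclusion is the FPKM listed with the exon over the FPKM listed with or without it. It is not a share of all transcripts of the gene. For a MEIS1 exon of 96 bases near the gene end (chr2:66569050-66569145) it was 89.8% and 90.7% in shControl. In shNeuroD1 it was 89.8% and 96.4%. An exon of 142 bases was included in 69.5% and 65% in shControl and in 71.3% and 66.7% in shNeuroD1. Both exons overlapped between groups. In NBAS the listed exons of 129 and 196 bases were included in practically all transcripts of every library. MYCNOS starts were not stable between libraries of a group. The start at chr2:15941532-15941723 had 4.59 and 2.25 FPKM in shControl and 3.26 and 9.13 in shNeuroD1. One start was listed only in shControl replicate 2, at 7.43 FPKM, and another only in shNeuroD1 replicate 2, at 15.3 FPKM. This last start (chr2:15942608-15945492) lies beyond the annotated MYCNOS span and inside the MYCN gene. It made up 62.6% of the summed MYCNOS starts of shNeuroD1 replicate 2. The FPKM fit, which sums these starts, turned the sign of MYCNOS, to 0.43 (adjusted p = 0.804, limma). The part of the start inside MYCN in this turn was not tested. The decrease of MYCNOS rests on the counts.

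Tested genes close to MYCN, within 2 Mb, differed sharply in level by side. Within 2 Mb of the MYCN start the count table held 45 genes, of which 13 were tested. Of these, 5 were in the top 1% of all genes by level per length, and each of the 5 started at MYCN or before it on the chromosome. Besides DDX1, MYCN and NBAS they were LRATD1 (230.5 CPM per kb, rank 96) and the unnamed gene ENSG00000228505 (371.5, rank 62), both about 1.3 Mb before MYCN. All 5 genes tested beyond MYCN, CYRIA, VSNL1, SMC6, GEN1 and KCNS3, ranked between 4317 and 13693. Between NBAS and DDX1 lay ENSG00000234022 at 1.27 CPM per kb, rank 13144. The order of the sides did not hold between 2 and 5 Mb from MYCN. There RHOB, beyond MYCN, stood highest (rank 316), and the highest gene before MYCN was TRIB2 (rank 2026). LRATD1, ENSG00000228505, RHOB and TRIB2 are named here for their levels, after these were seen. These levels were not tested against other regions.

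**Figure D4:**
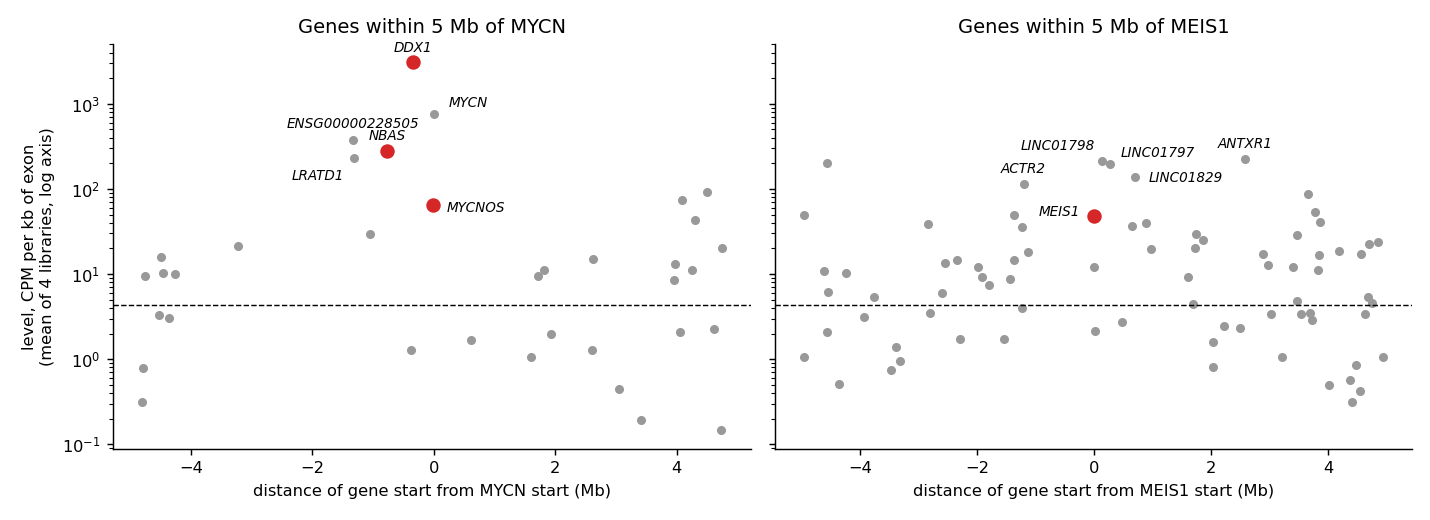
Each point is a tested gene within 5 Mb of MYCN (left) or MEIS1 (right), placed by the distance of its start in Mb and by its mean level in CPM per kb of exon on a log axis; red points are DDX1, NBAS, MYCNOS and MEIS1, and the dashed line is the median of all genes, 4.36. DDX1, at 3064 CPM per kb, is the highest point, and 5 points, MYCN and 4 genes to its left, stand above 200 CPM per kb in the left panel.

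In the same window 8 of 13 genes fell and 0 rose at an adjusted p under 0.05 (0 rose at an unadjusted p under 0.05, and 0 in DESeq2), beside 28.2% lower and 26.8% higher over all tested genes. With libraries scaled by totals alone MYCN counted as higher (log2 fold change 0.11, adjusted p = 0.0139, edgeR). The median log2 fold change was -0.18, against 0.01 over all genes. The steepest decreases were on the far side of MYCN. KCNS3, a potassium channel subunit, fell by 1.57 on the log2 scale (SE 0.21, adjusted p = 1.05e-07, edgeR), from 9.77 and 8.82 CPM to 4.08 and 2.17. Without shControl replicate 1 it missed the threshold (adjusted p = 0.0501, edgeR). GEN1, which resolves Holliday junctions, fell by 1.32 (SE 0.050, adjusted p = 1.05e-20, edgeR), from 184.8 and 189.4 CPM to 75.2 and 74.4. SMC6, of the SMC5/6 complex that acts in DNA repair, fell by 0.60 (SE 0.053, adjusted p = 2.22e-11, edgeR), from 110.5 and 111.9 CPM to 72.8 and 73.8. SMC6 and GEN1 overlap on opposite strands. Among the genes before MYCN, LRATD1 fell by 0.16 (adjusted p = 3.17e-04, edgeR) from 2042 to 1823 CPM, and its decrease did not pass with libraries scaled by totals alone (adjusted p = 0.228, edgeR). Its sign turned in both FPKM fits, to 0.27 (adjusted p = 0.239 and 0.24, limma).

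The count table held 72 genes within 2 Mb of MEIS1, of which 26 were tested. Of these, 10 fell and 7 rose, beside 28.2% lower and 26.8% higher over all tested genes, and the median log2 fold change was -0.11. Without shControl replicate 1, 6 fell. Past both thresholds, adjusted p and log2 fold change, 2 were lower (SLC1A4 and MEIS1-AS2) and 1 was higher (LINC01799), beside 5.14% and 8.79% of all genes. SLC1A4, a neutral amino acid transporter, fell by 1.07 (SE 0.067, adjusted p = 5.03e-15, edgeR), from 78.6 and 87.7 CPM to 41.2 and 38.2. With libraries scaled by totals alone SLC1A4 stood at -0.96 (adjusted p = 1.04e-13, edgeR), and in the FPKM fit at -0.87 (adjusted p = 0.039, limma). Both were short of the fold change threshold. MEIS1-AS2, on the strand opposite to MEIS1, fell by 1.27 (SE 0.32, adjusted p = 0.00108, edgeR), from 3.05 and 3.15 CPM to 1.71 and 0.854. LINC01799 rose by 1.12 (SE 0.31, adjusted p = 0.00261, edgeR), from 1.22 and 1.64 CPM to 2.50 and 3.74. These low genes lost their calls on leaving out a library, MEIS1-AS2 without either shControl replicate (adjusted p = 0.0999 and 0.109, edgeR). LINC01799 lost its call without shControl replicate 1, shControl replicate 2 or shNeuroD1 replicate 2 (adjusted p = 0.15, 0.0844 and 0.107, edgeR) and in DESeq2 (adjusted p = 0.0842).

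Of 6 noncoding genes tested within 1 Mb downstream of MEIS1, 3 were more abundant per length than MEIS1 itself (48.6 CPM per kb) and are named for these levels, after the values were seen. The others, ENSG00000236605, LINC01828 and LINC01799, stood at 39.3, 36.4 and 2.76 CPM per kb. LINC01798 starts 161 bases after the end of MEIS1 on the same strand and stood at 214.1 CPM per kb (rank 108). It rose by 0.64 (SE 0.045, adjusted p = 8.82e-14, edgeR), from 260.1 and 277.2 CPM to 404.1 and 435.1. LINC01797, at 197.7 CPM per kb (rank 123), rose by 0.49 (adjusted p = 9.44e-11, edgeR), from 126.3 and 124.9 CPM to 177.4 and 176.3. LINC01829, at 137.9 CPM per kb (rank 205), fell by 0.44 (adjusted p = 6.16e-11, edgeR), from 448.3 and 438.3 CPM to 321.8 and 329.7. The groups of these 3 genes did not overlap, as in 38.4% of tested genes on the higher side and 37.7% on the lower. In the FPKM fit neither LINC01798 (log2 fold change 0.16, adjusted p = 0.516, limma) nor LINC01829 (-0.05, adjusted p = 0.80, limma) passed.

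**Figure D5:**
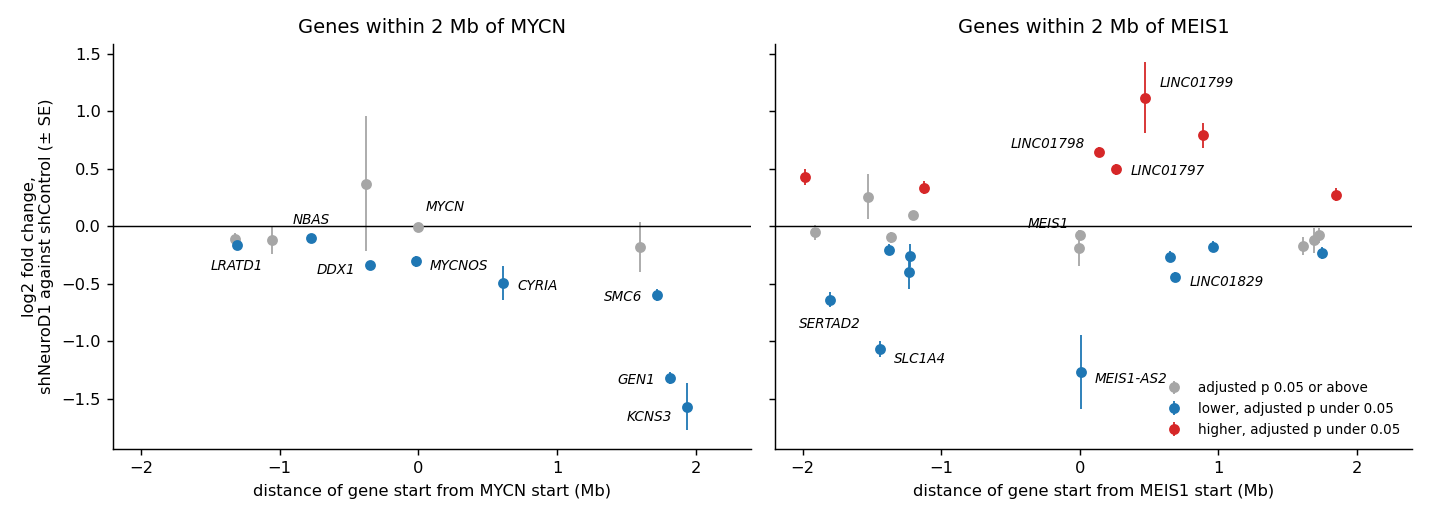
Each point is a tested gene within 2 Mb of MYCN (left) or MEIS1 (right), placed by the distance of its start in Mb and by its log2 fold change in shNeuroD1 against shControl, with the SE as error bar; blue points fell and red points rose at an adjusted p under 0.05 in edgeR with TMM scaling. Around MYCN 8 of 13 genes fell and none rose, and around MEIS1 10 of 26 fell and 7 rose.

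A list of genes on and near 2p24, taken by name, had 16 tested members, of which 10 fell and 2 rose, with a median log2 fold change of -0.32. Over all tested genes 28.2% fell and 26.8% rose, with a median of 0.01. Its DDX1, NBAS, MYCNOS, CYRIA, SMC6, GEN1 and KCNS3 are those that fell in the window around MYCN, so the counts of list and window are not separate. Only ODC1, ROCK2 and E2F6, of those that fell, lie outside that window. ODC1, the first enzyme of polyamine synthesis and a known N-Myc target, fell by 0.70 (adjusted p = 5.5e-15, edgeR), from 544.9 and 500.4 CPM to 325.8 and 319.0. E2F6, a repressor of the E2F family, fell by 0.79 (adjusted p = 9.02e-13, edgeR), from 83.1 and 81.0 CPM to 46.3 and 48.8. A like list for 2p14 had 14 tested members, of which 6 fell and 1 rose, to be read beside the same shares, with a median of -0.18. Every tested member of this list also lies in the window around MEIS1. The list thus counts genes of that window again, and it leaves out most of those that rose there. SERTAD2, a transcriptional coregulator, fell by 0.64 (adjusted p = 1.4e-09, edgeR), and SPRED2, an inhibitor of RAS-ERK signalling, rose by 0.33 (adjusted p = 3.05e-06, edgeR).

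Most partners of DDX1 in the tRNA ligase complex were lower as well. With DDX1 itself, 6 of 7 genes on that list fell and 0 rose (0 at an unadjusted p under 0.05, and 0 in DESeq2), with a median log2 fold change of -0.33. Over all tested genes 28.2% fell and 26.8% rose. FAM98A fell most, by 1.64 (SE 0.070, adjusted p = 3.29e-19, edgeR), from 86.2 and 98.7 CPM to 29.2 and 30.1. RTRAF fell by 0.33 (SE 0.060, adjusted p = 1.76e-05, edgeR), from 123.1 and 106.7 CPM to 95.1 and 86.9, and missed the threshold without shControl replicate 1 (adjusted p = 0.0744, edgeR). RTCB, the ligase itself, fell by 0.21 (adjusted p = 0.00106, edgeR), which did not pass with libraries scaled by totals alone (adjusted p = 0.12, edgeR). In the FPKM fit FAM98A passed (adjusted p = 0.0304, limma), but RTRAF (adjusted p = 0.355, limma) and RTCB (adjusted p = 0.424, limma) did not. C2orf49 did not pass, at a log2 fold change of 0.01. DDX1 was far more abundant than these partners, whose levels ran from 3.13 CPM per kb for ZBTB8OS to 35.2 for RTCB.

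The partners of NBAS did not move one way. Of the 8 genes of the NRZ tether and the SNAREs (membrane fusion proteins) of the endoplasmic reticulum, NBAS included, 2 fell and 2 rose, beside 28.2% and 26.8% of all tested genes, with a median log2 fold change of 0.10. ZW10, a subunit of NRZ and of the kinetochore, fell by 0.45 (SE 0.088, adjusted p = 4.94e-05, edgeR), from 32.4 and 30.9 CPM to 21.8 and 24.4. RINT1, which joins ZW10 and NBAS in the tether, rose by 0.35 (SE 0.082, adjusted p = 5.36e-04, edgeR), from 27.7 and 28.7 CPM to 38.1 and 33.9. RINT1 missed the threshold without shControl replicate 1 (adjusted p = 0.0971, edgeR) and without shControl replicate 2 (adjusted p = 0.0733, edgeR). SCFD2 rose by 0.30 (adjusted p = 0.0103, edgeR), a call lost without shControl replicate 1 (adjusted p = 0.165, edgeR) and in DESeq2 (adjusted p = 0.182).

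Of 11 nonsense-mediated decay factors, NBAS included, 5 fell and 1 rose, beside 28.2% and 26.8% of all tested genes. The median log2 fold change was -0.10. Among those that fell, UPF1 and UPF2 passed narrowly (adjusted p = 0.0426 and 0.0394, edgeR). Neither passed in DESeq2 (adjusted p = 0.213 and 0.204) or with libraries scaled by totals alone (adjusted p = 0.647 and 0.629, edgeR). SMG8, a regulator of the SMG1 kinase, fell by 0.23 (adjusted p = 4.73e-04, edgeR), and not when libraries were scaled by totals alone (adjusted p = 0.0591, edgeR). UPF3B, an exon junction adaptor, fell by 0.20 (adjusted p = 0.0197, edgeR), and not in DESeq2 (adjusted p = 0.165) or without shControl replicate 1 (adjusted p = 0.163, edgeR) or shNeuroD1 replicate 2 (adjusted p = 0.142, edgeR).

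Of 11 TALE homeobox genes tested, 5 fell and 2 rose, beside 28.2% and 26.8% of all tested genes, with a median log2 fold change of -0.28. MEIS2, the closest relative, fell by 1.57 (SE 0.21, adjusted p = 1.03e-07, edgeR), from 7.67 and 8.0 CPM to 2.10 and 3.15. MEIS3 rose by 0.70 (SE 0.052, adjusted p = 3.2e-13, edgeR), from 89.6 and 98.4 CPM to 155.4 and 151.2. PBX3, a binding partner of MEIS proteins, fell by 0.85 (SE 0.094, adjusted p = 3.31e-09, edgeR), from 29 and 30.9 CPM to 16.4 and 16.9. TGIF2, a repressor of the TALE class, fell by 0.54 (SE 0.065, adjusted p = 1.83e-08, edgeR). Per length MEIS1 stayed the highest of these, at 48.6 CPM per kb, against 24.1 for MEIS3 and 0.484 for MEIS2.

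The genes whose pattern over the 4 libraries was most like each of the 3 genes that fell were found by the distance between centred log2 CPM, over 10560 genes of at least 10 CPM. For DDX1 they were OSER1, DDX18 (a nucleolar DEAD-box helicase) and ALDH16A1, at distances of 0.012, 0.012 and 0.015. For NBAS they were ZNF397, KCMF1 and MED13L, a subunit of the Mediator kinase module, at 0.0051 to 0.0099. For MYCNOS they were TRPM7 (a channel kinase), TTC28 and GLRX2 (a mitochondrial glutaredoxin), at 0.0099 to 0.015. DDX18 and KCMF1 also lie on chromosome 2, and none of the 9 is among the genes within 2 Mb of MYCN or MEIS1. With 4 libraries this likeness is a description.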

How the data were processed

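Per the labels' processing notes, reads were trimmed with cutadapt 1.9.1 and aligned with HISAT2 2.0.1 to hg38, and HTSeq 0.6.1 made the raw read counts per gene that the authors deposited. A further deposited table per library gives FPKM for starts, ends and splice events of assembled transcripts, listed only above 0. The tool behind these and the use of strand are not given in the sources used here. No column lacked a sample.

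Counts were fitted in edgeR 4.0.16 (R 4.3.3) with filterByExpr (minimum count 10), TMM and the two-sided quasi-likelihood F test. SE is the log2 fold change over the square root of F. Exon lengths and positions are those of GENCODE 29 (GRCh38) for 58394 genes. Alternatives used DESeq2 1.42.0, limma 3.58.1 on log2(FPKM + 1) and log2(FPKM + 0.1) for genes of at least 1 FPKM on average, other filters and scalings, and each library left out. The fit was tested on simulated data.

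The 4 genes and the lists were chosen with earlier results of these data known. Named were genes past both thresholds (adjusted p under 0.05, log2 fold change beyond 1, up to 8 per list). Where fewer than 3 were, the 3 with the smallest adjusted p were added. Further members, among them RTCB, C2orf49, ZBTB8OS, ROCK2, UPF1 and UPF2, are named outside this rule, to fill out counts or levels.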

Additional observations from a re-analysis of the deposited data

How the results depend on the processing

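DDX1 fell in every alternative, with log2 fold changes from -0.37 to -0.32 on leaving out each library, but did not pass in the FPKM fits (-0.28 with either pseudocount, adjusted p = 0.216 and 0.208, limma). On leaving out each library NBAS ranged from -0.15 to -0.083, MYCNOS from -0.38 to -0.25, MEIS1 from -0.11 to -0.068, MYCN from -0.046 to 0.011 and NEUROD1 from -2.84 to -2.71. MYCN was at 0.011 without shControl replicate 1. Scaling by library totals alone turned NBAS to 0.0074, MEIS1 to 0.036 and MYCN to 0.11. A minimum mean of 1 CPM turned MYCN to 0.0059. The FPKM fits turned NBAS to 0.017 with either pseudocount, MYCNOS to 0.43 and 0.42 and MYCN to 0.13 with either. The cause was not tested. No FPKM fit was made for NEUROD1.

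Over all genes 4939 fell and 4698 rose. The FPKM fits of 10084 genes gave 278 and 257 lower and 246 and 206 higher, DESeq2 gave 2767 higher, and both thresholds left 902 lower and 1541 higher. Scaling by totals alone gave 3639 lower and 6114 higher. On leaving out each library 3464 to 4213 fell and 2828 to 3860 rose, the fewest higher without shControl replicate 2 (2828) and shControl replicate 1 (2855). Within 2 Mb of MYCN 6 to 8 fell and 0 rose on leaving out each library, 1 fell in either FPKM fit, 2 past both thresholds, 4 within 1 Mb and 14 within 5 Mb. There, 1 rose when scaled by totals alone and 7 within 5 Mb. Around MEIS1 6 to 10 fell and 5 to 7 rose on leaving out each library, 6 fell when scaled by totals alone, and 1 fell and 0 rose in either FPKM fit. Past both thresholds 2 fell and 1 rose there, 4 and 4 within 1 Mb, and 26 and 18 within 5 Mb.

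Samples of the same replicate number did not deviate together (correlation 0.0158 over the 17537 genes tested), and the main fit did not pair them. Whether they were grown or handled together is not in the labels. The replicate block gave -0.34 for DDX1, -0.10 for NBAS, -0.30 for MYCNOS, -0.08 for MEIS1, -0.01 for MYCN and -2.77 for NEUROD1, and changed none of these calls. It gave 5000 lower and 4748 higher over all genes, and 8 lower around MYCN and 10 lower and 8 higher around MEIS1. With 2 libraries a group, changes of the size of MEIS1 (-0.08) pass or fail with 1 library.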

Other observations

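Neighbours of MYCN named for noncoding transcripts of the locus had almost no reads. MYCNUT reads numbered 2 and 0 in the controls against 1 and 1 after knockdown, and GACAT3 reads 0 and 0 against 0 and 2. Both were too low to be tested.

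ANTXR1, a receptor for anthrax toxin and collagen, starts 2.58 Mb beyond MEIS1 and stood at 226.9 CPM per kb, rank 98 of all genes and 11th on chromosome 2. It had a log2 fold change of -0.10 (SE 0.037, adjusted p = 0.0299, edgeR). It was named for its level, after the values were seen.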
